A study of Mus musculus with 11 samples.

Results

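The Cfap genes encode cilia and flagella associated proteins, a family held together by name and not by sequence. They were taken by symbol: every protein-coding gene of the RefSeq table of GRCm38.p6 called Cfap followed by a number, with 4 symbols set aside by the rule. This gave 27 of 21887 protein-coding genes. Peaks of the transcription factors RFX1, RFX2 and RFX3 were examined at these genes. The data came from chromatin immunoprecipitation and sequencing (ChIP-seq) of ependymal cells, whose motile cilia beat on the ventricle surface of the brain. They were grown and differentiated ex vivo. The labels give their source as lateral walls of the embryonic mouse brain, age P0, wild type. The label for cell type reads OF1, which is also part of every sample title. Every RFX was precipitated in 2 samples, and for RFX2 the antibody lot was not the same in both. Input chromatin was sequenced in 2 samples for RFX1, 2 for RFX2 and 1 for RFX3. All groups carry the same labels for cell type, genotype and age and differ in antibody. The files hold no expression values, so the identity of the cells as ependymal was not checked against markers.

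A motile cilium is built around the axoneme, a cylinder of doublet microtubules with a pair of single microtubules, the central apparatus, in its middle. Dynein arms on the doublets drive the beat, and radial spokes carry signals from the central apparatus to the arms. Further proteins line the inside of the doublets and steady them. Cfap proteins are found in each of these places. RFX factors bind an inverted repeat called the X-box, which is known from promoters of ciliary genes.

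The sequences below show what strong binding sites near the ends of these genes look like. For 8 members they are the stretch of 120 bases around the summit, the position of strongest ChIP signal, of the member's best ranked peak. They were read from the RefSeq promoter table (GRCm38.p6, 250 bases before to 50 after a start), which matched 21 of the 27 members. Cfap53, Cfap65, Cfap73, Cfap97, Cfap157 and Cfap299 have no entry. Each is written 5′ to 3′ on the strand of the gene. Capitals mark the place closest to the X-box arms GTTGCC and GGCAAC set 1 or 2 bases apart. At most 3 of the 12 arm letters differ there, a limit set after the data were seen. In Cfap70 the capitals mark the GTTGC nearest the summit. The same letters on the other strand near the 5′ end of that stretch are left in lower case. Cfap43 has neither in its stretch.
Cfap57 (chr4:118620736-118620855, - strand): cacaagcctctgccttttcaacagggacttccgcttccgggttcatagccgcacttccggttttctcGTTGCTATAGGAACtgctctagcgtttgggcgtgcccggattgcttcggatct
Cfap20 (chr8:95434956-95435075, - strand): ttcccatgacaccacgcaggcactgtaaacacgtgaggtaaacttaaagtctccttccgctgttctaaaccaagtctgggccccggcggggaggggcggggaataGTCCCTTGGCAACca
Cfap44 (chr16:44394710-44394829, + strand): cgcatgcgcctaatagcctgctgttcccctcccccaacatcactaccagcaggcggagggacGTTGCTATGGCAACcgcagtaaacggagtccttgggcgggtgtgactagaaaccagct
Cfap52 (chr11:67965593-67965712, - strand): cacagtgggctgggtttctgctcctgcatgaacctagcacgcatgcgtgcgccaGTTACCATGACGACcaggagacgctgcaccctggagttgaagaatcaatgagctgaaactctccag
Cfap43 (chr19:47837359-47837478, - strand): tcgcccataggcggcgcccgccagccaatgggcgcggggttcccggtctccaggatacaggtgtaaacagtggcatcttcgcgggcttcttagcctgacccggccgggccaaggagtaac
Cfap70 (chr14:20452176-20452295, - strand): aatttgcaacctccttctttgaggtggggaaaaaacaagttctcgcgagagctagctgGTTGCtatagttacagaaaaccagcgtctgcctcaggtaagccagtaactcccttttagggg
Cfap36 (chr11:29247240-29247359, - strand): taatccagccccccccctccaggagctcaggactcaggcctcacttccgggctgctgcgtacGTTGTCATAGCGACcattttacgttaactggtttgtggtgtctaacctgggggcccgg
Cfap61 (chr2:145934714-145934833, + strand): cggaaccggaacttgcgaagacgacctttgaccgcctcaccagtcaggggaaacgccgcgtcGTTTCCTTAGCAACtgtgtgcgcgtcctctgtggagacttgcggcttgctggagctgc
In Cfap44 a single arm letter differed, and the centre of the marked place lay 8.5 bp from the RFX1 summit, 13.5 bp from the RFX2 summit and 7.5 bp from the RFX3 summit. In Cfap57, where 3 letters differed, it lay 1.5 bp from the RFX1 and RFX2 summits. The marked place of Cfap61 had 2 letters different and lay 2.5 bp from the RFX1 summit. That of Cfap20 was farther off, 51 bp from the RFX1 summit and 43 bp from those of RFX2 and RFX3.

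Most Cfap genes had an RFX summit at an end, and RFX1 and RFX3 reached them about equally often. Binding was called at a gene if the annotated start or end had a summit no more than 1 kb away. By this rule RFX1 was bound at 18 of 27 Cfap genes (66.7%, exact 95% interval 46.0 to 83.5), where 9.05% of all protein-coding genes were bound. RFX3 was bound at 19 (70.4%, 49.8 to 86.2), against 7.94% of all genes. RFX2 was bound at 6 (22.2%, 8.62 to 42.3), against 2.08% of all genes. These intervals cover the counting of genes only, since each peak list was deposited with the replicates already merged. For the same reason no value here has a replicate error and no test was made.

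**Figure D1:**
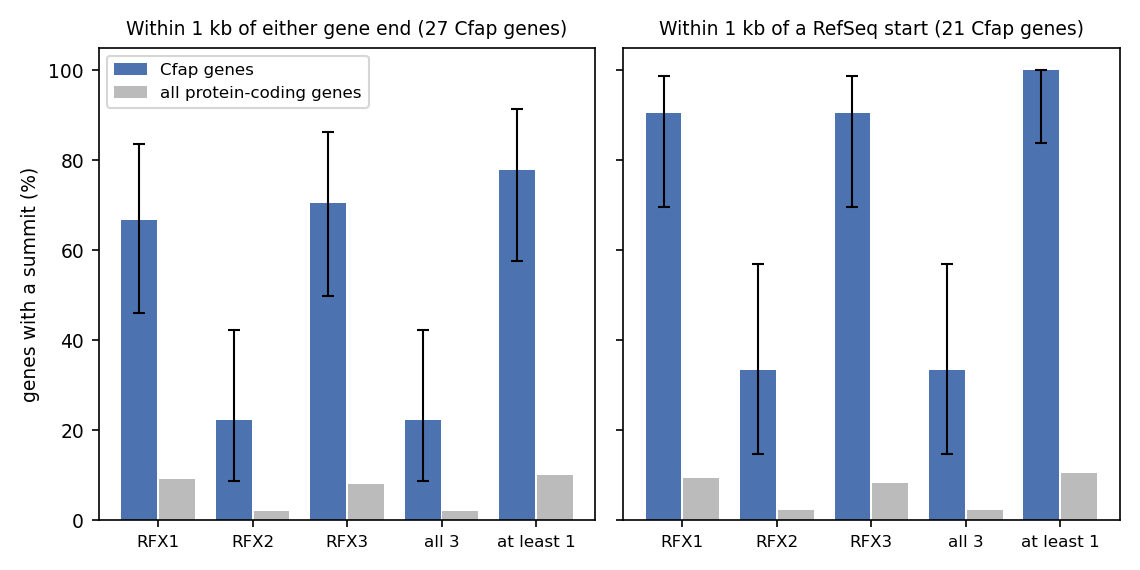
Share of genes (y axis, percent) with a summit of RFX1, RFX2, RFX3, all 3 or at least 1 of them within 1 kb of either gene end (left) or of a RefSeq start (right). Blue bars are Cfap genes with exact 95% intervals and grey bars all protein-coding genes of the same table. At gene ends 77.8% of the Cfap genes had a summit of at least 1 RFX, against 10.1% of all genes.

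All 6 Cfap genes with RFX2 also had RFX1 and RFX3, as did 451 of the 455 genes with RFX2 in the whole table. All 3 factors were bound at 6 Cfap genes (22.2%, against 2.06% of all genes), namely Cfap20, Cfap36, Cfap44, Cfap52, Cfap57 and Cfap65. RFX1 and RFX3 without RFX2 were bound at 10 Cfap genes and at 1056 of all 21887 genes. The 10 were Cfap43, Cfap53, Cfap58, Cfap61, Cfap69, Cfap70, Cfap73, Cfap77, Cfap157 and Cfap410. RFX1 alone was bound at Cfap46 and Cfap206, and RFX3 alone at Cfap45, Cfap47 and Cfap299. Over all genes, 469 had RFX1 alone and 231 RFX3 alone. Cfap74, Cfap97, Cfap99, Cfap100, Cfap126 and Cfap161 had no summit within 1 kb of an end, and neither had 19676 of all genes. The RFX1 list holds 7440 peaks, the RFX2 list 1250 and the RFX3 list 9318. With only the best 1250 peaks of every list kept, RFX1 was bound at 10 Cfap genes, RFX2 at 6 and RFX3 at 9, against 3.10%, 2.08% and 2.07% of all genes. At that length 5 Cfap genes had all 3 factors (1.27% of all genes) and 11 had at least 1 (3.64%).

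Peaks at Cfap genes ranked high in their lists. Peaks were ranked within a list by −log10 q, the authors' peak q-value on a −log10 scale, and fold is their enrichment over background. The median −log10 q of the best peak was 87.4 over the 18 Cfap genes with RFX1, and 49.1 over all 1980 genes with RFX1. It was 50.2 over the 6 Cfap genes with RFX2 and 32.3 over all 455. For RFX3 it was 45.3 over 19 Cfap genes and 32.6 over all 1738. Median folds ran the same way, at 11.8 against 8.49 for RFX1, 10.7 against 8.74 for RFX2 and 6.05 against 4.84 for RFX3. Across the 16 Cfap genes bound at an end by both RFX1 and RFX3, Spearman's rho of their −log10 q was 0.738, a description over peaks of the same cell source and processing. No such value over all genes bound by both is set beside it, so it is not read as particular to the family.

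**Figure D2:**
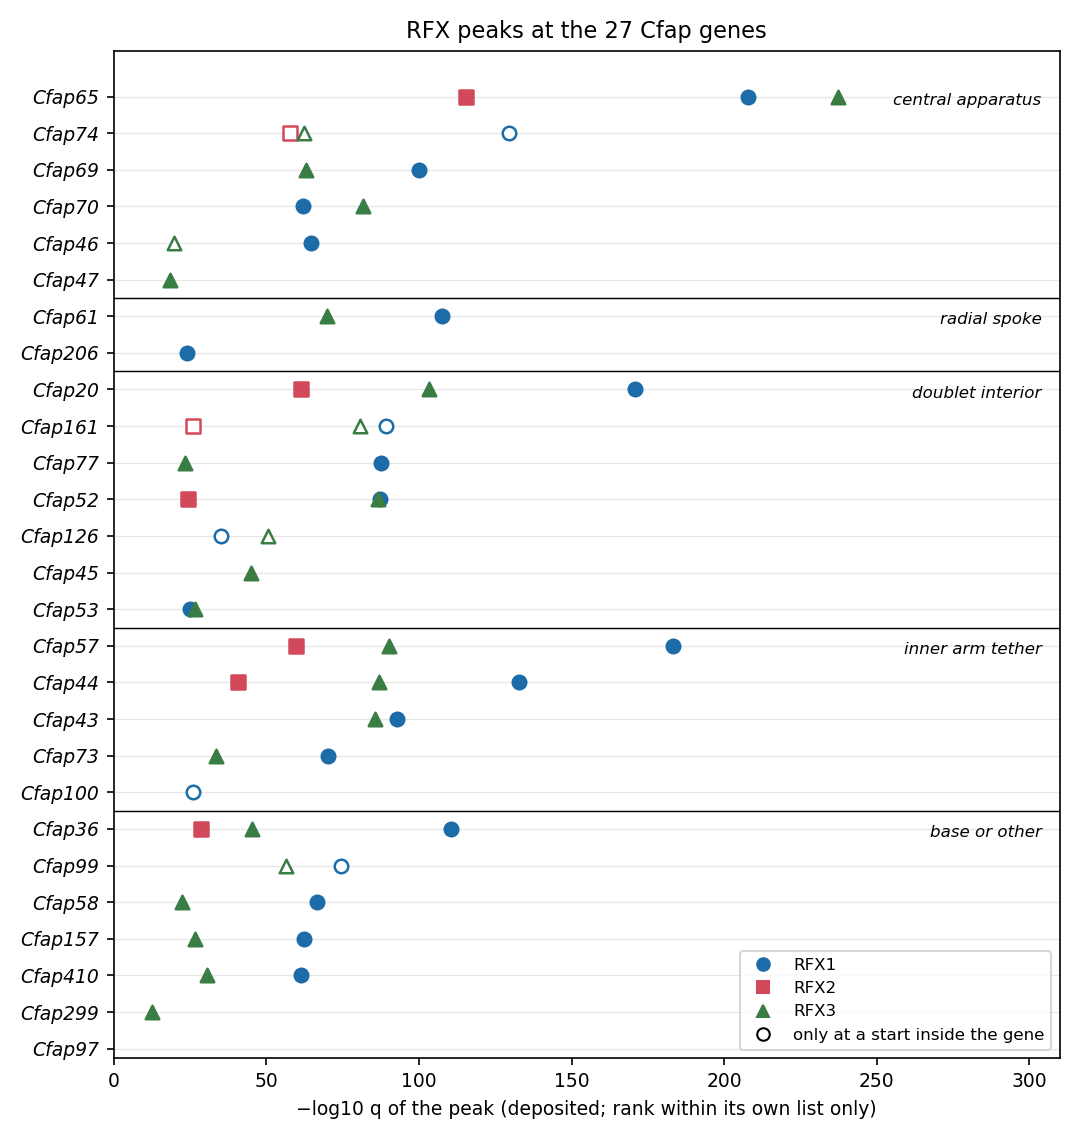
The −log10 q (x axis) of each RFX1, RFX2 and RFX3 peak at the 27 Cfap genes (rows, grouped by where the protein acts). Filled symbols lie within 1 kb of a gene end and open symbols only near a start inside the gene, while peaks farther inside genes are not plotted. Cfap65 has the strongest RFX3 peak, and Cfap97 has none.

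Genes of the central apparatus were bound at an end by RFX1 in 4 of 6 cases, by RFX3 in 4 and by RFX2 in 1. Beside this and the groups that follow, the shares over all genes were 9.05% (RFX1), 7.94% (RFX3) and 2.08% (RFX2). Cfap65, which encodes a protein of this structure that sperm flagella need, had the strongest peaks of the family. Its RFX3 peak ranked 6 of 9318, with a fold of 40.0, and was the best at any gene end in that list. The RFX1 peak of Cfap65 ranked 13 of 7440 (fold 27.9) and its RFX2 peak 36 of 1250 (fold 27.2), so it stood in the top 3% of every list. Cfap69 had an RFX1 peak at rank 597 (fold 12.1) and an RFX3 peak at rank 933 (fold 6.71). In Cfap70, RFX3 ranked better than RFX1: the RFX3 peak stood at rank 497 with a fold of 21.2, and the RFX1 peak at rank 1591 with a fold of 11.4. Cfap47, on the X chromosome, had an RFX3 peak alone, at rank 5047 with a fold of 5.71, and the nearest RFX1 summit was 1555474 bp away.

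Both genes of the radial spoke group had RFX1. Cfap61, part of the complex at the base of the spokes, had an RFX1 peak at rank 490 (fold 13.3) and an RFX3 peak at rank 718 (fold 6.05). Cfap206, which helps dock a spoke to the doublet, had RFX1 alone, with a fold of 6.70 at rank 4432. The nearest RFX3 summit to an end of Cfap206 was 85143 bp away.

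Of 7 genes for proteins inside the doublets, RFX1 was bound at an end of 4, RFX3 of 5 and RFX2 of 2. Cfap20, an inner junction protein that closes the doublet, had the best peaks of this group. Its RFX1 peak ranked 72 of 7440 (−log10 q 171), its RFX2 peak 159 of 1250 (−log10 q 61.3) and its RFX3 peak 242 of 9318 (−log10 q 103). The summits of RFX2 and RFX3 at Cfap20 fell on the same base. Cfap52, another doublet protein gene, had its best rank with RFX3, at 426 of 9318 (fold 11.7). Its RFX1 peak stood at 827 of 7440 (fold 9.32) and its RFX2 peak at 858 of 1250 (fold 9.36). Cfap77 had RFX1 at rank 825 (fold 14.2) and RFX3 only at rank 4007 (fold 4.32). Its RFX1 and RFX3 summits lay 100 bp apart, the widest gap of any member. Cfap45 had RFX3 alone, with a fold of 6.03 at rank 1766, and its nearest RFX1 summit was 4983 bp from an end. Cfap53, which is also needed for left-right patterning, had weak peaks of RFX1 (fold 5.55, rank 4263) and RFX3 (fold 4.64, rank 3505).

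Genes that tether or regulate the inner dynein arms were bound at an end by RFX1 and RFX3 in 4 of 5 cases each, and by RFX2 in 2. Cfap57 had the second best RFX1 peak of the family, at rank 42 with a −log10 q of 183. The RFX2 peak of Cfap57 ranked 166 of 1250 (−log10 q 59.7) and the RFX3 peak 369 of 9318 (−log10 q 90.3). Cfap43 and Cfap44 encode partners in a tether that holds an inner arm to the doublet, and RFX2 had a peak at only Cfap44 of the pair. Cfap44 had RFX1 at rank 268 (fold 13.8), RFX2 at rank 379 of 1250 (fold 8.28) and RFX3 at rank 422 (fold 6.48). Cfap43 had RFX1 at rank 727 (fold 12.8) and RFX3 at rank 447 (fold 7.81), while the nearest RFX2 summit was 1415251 bp away. Cfap73, part of a complex that modifies the inner arms, had RFX1 at rank 1293 (fold 9.30) and RFX3 at rank 2682 (fold 5.74).

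The remaining 7 genes act at the ciliary base, in sperm flagella or have less settled roles. RFX1 was bound at an end of 4 of them, RFX3 of 5 and RFX2 of 1. Cfap36, whose product binds the small GTPase ARL3, was the member with RFX2, and its RFX1 peak ranked 455 (fold 11.7). Its RFX2 and RFX3 peaks stood lower in their own lists, at rank 683 of 1250 (fold 7.17) and 1749 of 9318 (fold 3.84). Cfap58, Cfap157 and Cfap410 had RFX1 peaks with a −log10 q of 66.6, 62.4 and 61.2 and RFX3 peaks with a −log10 q of 22.5, 26.7 and 30.5. Cfap299 had a single RFX3 peak with a fold of 3.13, at rank 7157, the weakest peak at an end or start of any member (−log10 q 12.5). Cfap97, which has no entry in the promoter table, was the only member with no summit within 1 kb of an end or a table start. Its nearest RFX1 and RFX3 summits were 31523 and 31515 bp from an end.

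Of the 6 members without a summit at an end, 5 had one beside a start that lies inside the annotated gene. The gene table gives the outermost ends of all transcripts, while the promoter table gives single starts. Counted from table starts, RFX1 was bound at 19 of the 21 Cfap genes with an entry (90.5%, 69.6 to 98.8), against 9.46% of the 17492 protein-coding genes with an entry. RFX3 was also bound at 19, against 8.26%, and RFX2 at 7 (33.3%, 14.6 to 57.0), against 2.28%. The same 7 had all 3 factors, against 2.26% of genes. All 21 had at least 1 RFX within 1 kb of a start, where 10.5% of genes did. This reading was extended to both kinds of position after the distances had been seen: with either an end or a table start, 26 of 27 Cfap genes were bound, against 11.3% of all genes. RFX1 then reached 23, RFX2 8 and RFX3 24 of 27, against 10.1%, 2.35% and 8.96% of all genes, and 8 had all 3 factors, against 2.34%.

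Cfap74, a central apparatus gene, was the clearest of these. Its RFX1 summit lay 17007 bp from the nearer gene end and 84 bp upstream of a table start, with a fold of 11.4 at rank 293. Its RFX2 (fold 11.8) and RFX3 (fold 5.63) summits lay 66 and 35 bp upstream of the same start. Cfap161, a doublet protein gene, also had all 3 factors, with RFX1, RFX2 and RFX3 summits 34, 6 and 33 bp upstream of its start and 3152 bp or more from an end. Cfap99 had RFX1 (fold 12.8) and RFX3 (fold 5.62) summits 23 and 26 bp upstream of its start. Cfap126, also known as Flattop and tied to basal body positioning, had RFX1 (fold 8.81) and RFX3 (fold 8.47) summits 88 and 112 bp downstream of a start, 1 of its 3 in the table. Cfap100, which works with Cfap73, had RFX1 alone (fold 5.40), 26 bp downstream of its start. The stretches around the inner sites of 4 of these genes follow, read and marked as above. The Cfap126 summits lie outside the table's 300 bases and are not shown.
Cfap74 (chr4:155409046-155409165, + strand): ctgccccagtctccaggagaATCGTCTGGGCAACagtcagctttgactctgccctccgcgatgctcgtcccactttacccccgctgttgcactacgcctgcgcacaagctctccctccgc
Cfap161 (chr7:83794813-83794932, - strand): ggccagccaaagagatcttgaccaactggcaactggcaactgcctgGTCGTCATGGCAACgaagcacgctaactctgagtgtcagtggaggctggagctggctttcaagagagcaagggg
Cfap99 (chr5:34288579-34288698, + strand): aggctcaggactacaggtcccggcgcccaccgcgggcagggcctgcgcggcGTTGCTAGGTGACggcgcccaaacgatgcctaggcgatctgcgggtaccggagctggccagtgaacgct
Cfap100 (chr6:90428431-90428550, - strand): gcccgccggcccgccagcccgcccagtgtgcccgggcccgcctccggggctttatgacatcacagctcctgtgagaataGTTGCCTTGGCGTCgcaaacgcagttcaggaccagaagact
The marked place of Cfap161 had 2 letters different and lay 6.5 bp from the RFX1 summit and 7.5 bp from the RFX3 summit. In Cfap99, with 3 letters different, it lay 6.0 bp from the RFX1 summit and 3.0 bp from that of RFX3. In Cfap100, with 2 different, it was 10.5 bp from the RFX1 summit. In Cfap74, with 3 different, it was 33.5 bp from the RFX1 summit and 82.5 bp from that of RFX3, and a place equally close to the arms lay outside the stretch, 103 bp from the RFX1 summit.

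Of the end-bound members, only Cfap46 lay near the 1 kb limit from the inside, with an RFX1 summit 979 bp from an end. The next farthest were Cfap77 at 224 bp (RFX1) and Cfap299 at 195 bp (RFX3), well within it. Nearest on the outside were the RFX3 summit of Cfap46 at 1042 bp, the RFX1 summit of Cfap100 at 1314 bp and the RFX3 summit of Cfap99 at 1912 bp. Cfap46, a central apparatus gene, was thus called for RFX1 and not for RFX3 by a difference of 63 bp between summits of overlapping peaks. Both lay near its table start, 7 bp (RFX1, fold 9.86) and 70 bp (RFX3, fold 4.11) downstream.

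Summits sat close to the start. Where a member with an entry was bound at an end, that end was the start side for all 14 with RFX1, all 5 with RFX2 and all 14 with RFX3, where the share over all bound genes was 91.4%, 92.8% and 90.4%. An RFX1 summit lay within 50 bp of a table start at 14 of 21 Cfap genes, against 2.80% of all genes. For RFX3 this held for 13, against 2.70%, and for RFX2 for 4, against 0.789%. Among genes bound at a start, the median distance for RFX1 was 27 bp over 19 Cfap genes and 113 bp over all 1655. For RFX3 it was 35 bp over 19 and 98 bp over all 1445, and for RFX2 7 bp over 7 and 85 bp over all 398. Cfap52 had summits 1 bp upstream (RFX1), 7 bp upstream (RFX2) and 4 bp downstream (RFX3) of its start. Farthest upstream were Cfap77, at 224 bp (RFX1) and 124 bp (RFX3), and Cfap20, at 146 bp (RFX1) and 138 bp (RFX2 and RFX3).

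**Figure D3:**
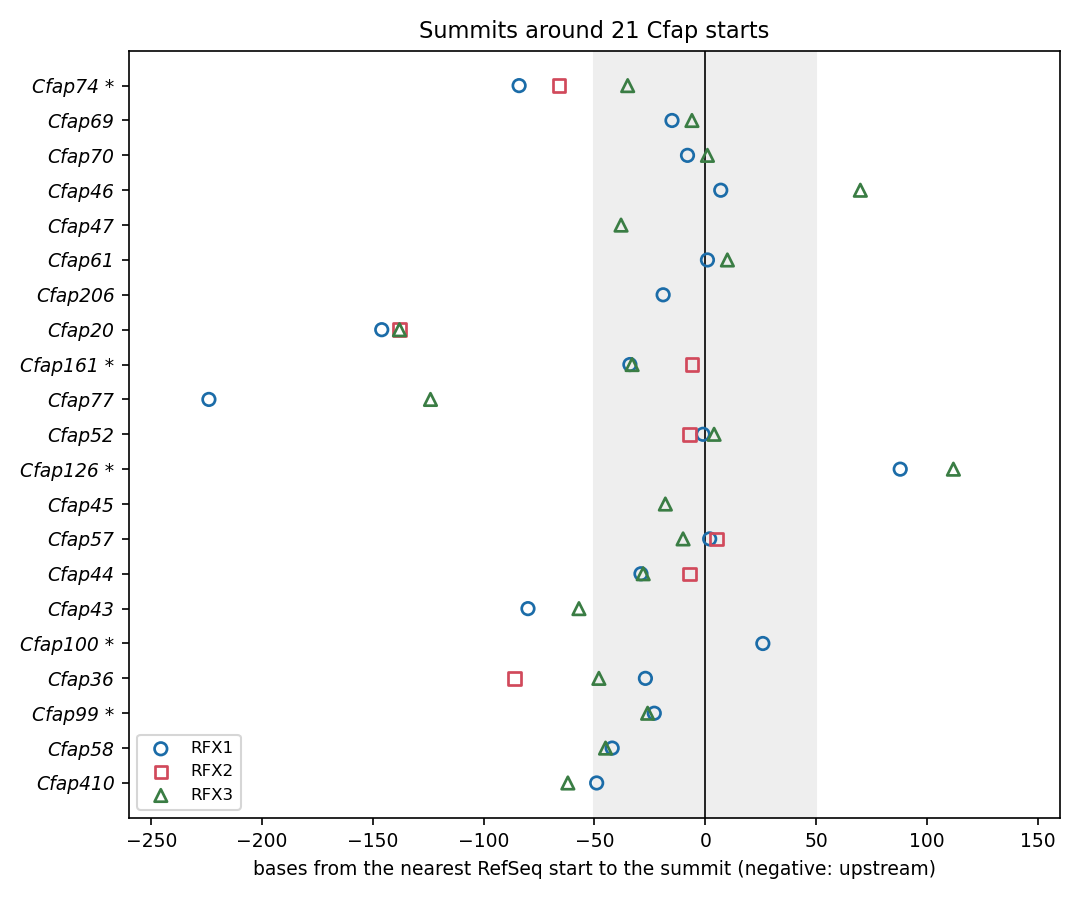
Distance in bases (x axis) from the nearest RefSeq start to each RFX1, RFX2 and RFX3 summit at 21 Cfap genes (rows), with upstream to the left and the shaded band 50 bases either side. Stars mark the 5 genes with no summit within 1 kb of a gene end. The nearest RFX1 summit lies inside the band at 14 genes.

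Where several factors were bound at a member, their summits lay close together, as they did over all genes bound by the same pair. RFX1 and RFX3 peaks overlapped by at least 1 bp at all 21 members that had both near an end or start, and at 99.6% of all 1706 genes that had both. Their summits lay a median of 9 bp apart at the members (1 to 100 bp) and 12 bp over all those genes. RFX1 and RFX2 summits lay a median of 15 bp apart over 8 members (3 to 59 bp) and 11 bp over all 515 genes. For RFX2 and RFX3 it was 20 bp over 8 members (0 to 38 bp) and 15 bp over all 512 genes. At Cfap44 and Cfap161 the RFX1 and RFX3 summits were 1 bp apart.

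Most members with an entry had a promoter with letters close to the X-box, though most lacked an unbroken arm. Genes were counted, each once if any of its promoters held the letters. The arm GTTGCC, on either strand, was present in 7 of the 21 Cfap genes (33.3%), against 14.3% of all 17492 genes. Among the 1655 genes with an RFX1 summit within 1 kb of a start it was 34.6%. These 7 were Cfap20, Cfap44, Cfap46, Cfap58, Cfap74, Cfap100 and Cfap161. Its first 5 letters, GTTGC, were present in 15 (71.4%), against 38.8% of all and 63.4% of those with RFX1. The whole pattern, GTNNCC followed after 3 free bases by GNAAC, was present in 4 (Cfap44, Cfap45, Cfap61 and Cfap206, 19.0%), against 2.55% of all and 17.5% of those with RFX1. Both arms with at most 3 of 12 letters different were found in 18 (85.7%), against 27.3% of all and 60.2% of those with RFX1. With at most 2 different it was 6 (28.6%), against 5.49% of all and 28.4% of those with RFX1. The limits of 3 and 2 letters were both set after the data were seen. These patterns overlap each other, and a match is a description of letters. Of the RFX1 summits inside such promoters, 10 of 15 at Cfap genes (66.7%) lay within 50 bp of the centre of the arms, where the share over all 791 genes was 82.8%. Within 20 bp it was 10 of 15 Cfap genes, and 535 of all 791 genes. For RFX3 summits, 8 of 14 Cfap genes and 451 of all 728 genes were within 20 bp. At the start nearest the best ranked summit, 18 members had at most 3 letters different, and in 11 of them the centre of the arms lay within 20 bp of that summit. In Cfap206, with RFX1 alone, it lay 2.5 bp from the RFX1 summit, and in Cfap45, with RFX3 alone, 5.5 bp from the RFX3 summit. In Cfap43, Cfap46, Cfap126 and Cfap410 the place taken lay 154 bp or more away. Only 1 place was kept per promoter, so an equally close place nearer the summit can have been missed, as in Cfap74. The counts within 20 and 50 bp have the same limit.

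**Figure D4:**
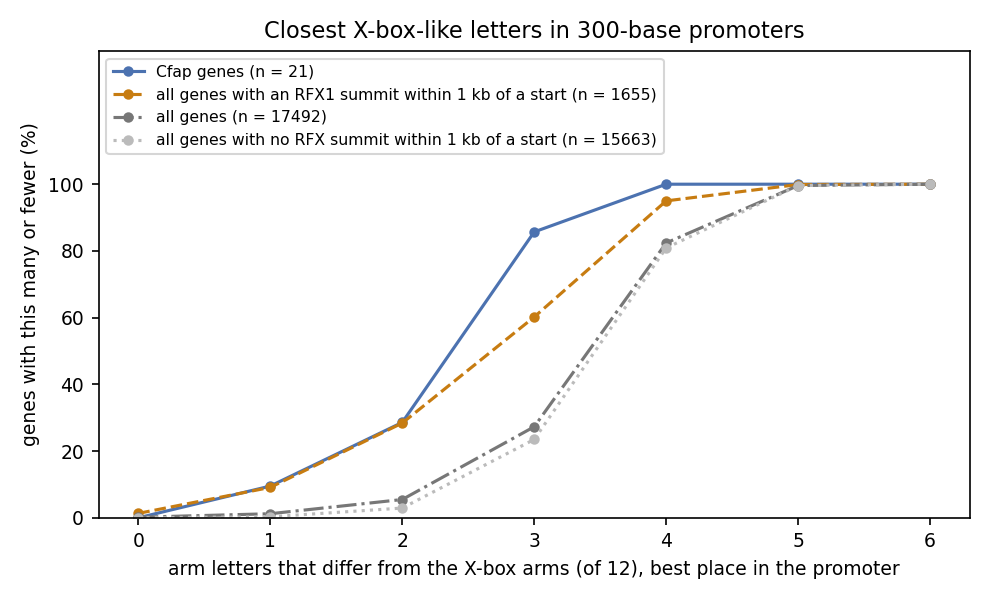
Cumulative share of genes (y axis, percent) with a 300-base promoter that holds both X-box arms with at most the given number of differing letters (x axis, of 12). Lines are the 21 Cfap genes, all genes with an RFX1 summit within 1 kb of a start, all genes, and genes with no RFX summit there. At 3 letters, a limit set after the data were seen, the shares are 85.7%, 60.2%, 27.3% and 23.5%.

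Some Cfap peaks are shared with a neighbour and cannot be given to a single gene. At 5 members every summit near an end also lay within 1 kb of another protein-coding gene: Crnkl1, a splicing factor gene, for Cfap61, Ebna1bp2, a ribosome biogenesis gene, for Cfap57, Steap2, a metalloreductase gene, for Cfap69, Stx8, a syntaxin gene, for Cfap52, and Mbd1, a methyl-CpG binding protein gene, for Cfap53. Without such genes RFX1 was bound at 13, RFX2 at 4 and RFX3 at 14 Cfap genes, against 5.97%, 1.28% and 5.46% of all genes. All 3 factors were then bound at 4 (1.27% of all genes) and at least 1 at 16 (6.89%). The inner summits of Cfap99 also lay within 1 kb of an end of Zfyve28. Genes that are not protein-coding were left out of these counts. Of these, Gm32680 had an end within 1 kb of the RFX1 and RFX3 summits of Cfap46, and Gm40262 of those of Cfap69.

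Some Cfap genes also had sites inside the gene, away from starts and ends. How often this held over all genes was not counted. Cfap61 had RFX1 (fold 5.95) and RFX3 (fold 9.80) peaks about 90 kb into the gene, with summits 89884 and 89974 bp from the nearer end. Cfap44 had an RFX1 peak 28971 bp from an end (fold 7.41, rank 5956), and Cfap100 had a further RFX1 peak with a fold of 3.75, at rank 7385 of 7440. Cfap20 had an RFX1 peak 1827 bp inside its start end (fold 8.98) and an RFX3 peak 6920 bp from its other end (fold 7.37). In Cfap299 an RFX1 peak lay 232400 bp from an end (fold 6.16). Its summit was also within 1 kb of an end of 1700010H22Rik, a gene that is not protein-coding.

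Other axoneme genes, listed for their place in the same structures, were also often bound. Of 40 such genes in the table, RFX1 was bound at an end of 32 (80.0%), RFX2 of 13 (32.5%) and RFX3 of 29 (72.5%), and 7 had none. Over all protein-coding genes the shares were 9.05%, 2.08% and 7.94%, and 19676 of 21887 had none. The central apparatus genes outside the family, among them Hydin and Spef2, had RFX1 at 6 of 7, RFX2 at 2 and RFX3 at 5. Radial spoke genes such as Rsph1 and Rsph4a had RFX1 at 7 of 10, RFX2 at 5 and RFX3 at 8. Genes of the nexin link and axonemal ruler had RFX1 and RFX3 at 9 of 10 each and RFX2 at 3. Doublet genes outside the family, tektins included, had RFX1 at 10 of 13, RFX2 at 3 and RFX3 at 7. Among them Enkur had the strongest RFX1 peak of these 40 genes, with a −log10 q of 201, close to the 208 of Cfap65.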

How the data were processed

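ChIP-seq peaks of RFX1, RFX2 and RFX3 in cultured mouse ependymal cells were used as deposited, as 1 merged list of reproducible peaks per RFX. The tools named, without their roles, per the submitters' processing notes are MACS2 2.0.10.20130520, Bowtie 0.12.7 and CASAVA 1.8.2, with the build GRCm38. Not given in the sources used here are the rule for a reproducible peak, the control of each list and the read depth. Each deposited peak has a fold enrichment (a ratio, by its place in the narrow-peak layout), a −log10 q and a score, which was 10 times the −log10 q without its decimals in 100% of peaks of all 3 lists.

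Peaks were ranked by −log10 q within their own list. Summits, counted from 1, were set against gene ends and promoter starts of RefSeq tables of GRCm38.p6, mitochondrial genes left out, with Python 3.11.15, pandas 2.3.3 and scipy 1.17.1. Shares have exact (Clopper-Pearson) 95% intervals. Of places equally close to the X-box arms, the one with the shorter spacing was taken, and then the one farthest upstream. Binding calls were tested on simulated summits, and the search for both arms on simulated sequences with unbroken arms. Searches for arms with differing letters and for the other patterns were not tested in this way. Alternatives were window width, peak threshold, list length, starts alone, shared summits, whole peaks and nearest gene. Members with full values were the 12 best ranked of those bound at an end, those with 1 RFX, those at the 1 kb limit and those sharing a peak. The members and lists were chosen with earlier results of these data known.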

Additional observations from a re-analysis of the deposited data

How the results depend on the processing

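The counts of bound Cfap genes stayed within 1.5 times their value with a 500 bp or 5 kb window, the best 50% of peaks, table starts alone, whole peaks, the nearest gene at any distance and genes with a summit of their own. The share of all genes moved more: with a 5 kb window it was 14.6% for RFX1, 13.8% for RFX3 and 17.1% for at least 1 RFX, beside 23, 23 and 25 Cfap genes. With the nearest gene at any distance it was 23.4%, 25.6% and 29.2%, beside 22, 21 and 23 Cfap genes. Under both settings the ratio of the Cfap share to the share of all genes is therefore smaller. With the 5 kb window their difference in percentage points is not. With every list at 1250 peaks, RFX1 fell to 10, RFX3 to 9 and genes with at least 1 RFX to 11, against 6 for RFX2. This setting removes the weaker peaks of the RFX1 and RFX3 lists. Of the 21 Cfap genes with promoters, 7 held the arm GTTGCC, 4 the whole pattern and 15 the shorter GTTGC (38.8% of all genes with an entry). Both arms were held by 18 with at most 3 letters different and by 6 with at most 2. These last settings, of 3 and 2 letters, were chosen after the data were seen. A peak that is not in a list was not called, which does not show that the factor was absent. No paired analysis was possible because the replicates of each RFX were merged before deposit, and for the same reason no replicate could be left out.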

Other observations

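Several genes of the same family fall outside the rule by their symbols. Maats1 and Wdr66, which encode the radial spoke proteins CFAP91 and CFAP251, were each bound by all 3 factors. Maats1 had folds of 18.9 (RFX1), 13.1 (RFX2) and 7.54 (RFX3) with summits 19, 6 and 22 bp from an end. Wdr66 had folds of 15.0, 9.01 and 5.80 with summits 368, 361 and 366 bp from an end. Morn3, which encodes CFAP207, had no summit within 1 kb of an end or a table start. Cfap97d2 had all 3 factors (RFX1 fold 17.1, RFX2 11.2, RFX3 7.99), although Cfap97 itself had none. Cfap20dc also had all 3, with folds of 16.1, 6.84 and 10.3, and Cfap97d1 had a single RFX3 peak 791 bp from an end with a fold of 3.66. These genes were added after the family's values were seen.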
